A study of Mus musculus with 3 samples.

Results

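The cells described here are the classical monocytes (cMonos) of mouse peripheral blood (PB), selected from single-cell RNA libraries by a gate on 3 marker transcripts. A barcode entered the gate when F13a1, Vcan and Fn1 together had at least 8 UMIs (unique molecular identifiers, each standing for 1 captured transcript), Pparg and Cd300e together had at most 2, and Cd3e, Cd3g, Cd79a and Ly6g together had at most 1. Before the gate, barcodes were kept with at least 200 detected genes and at most 10% mitochondrial UMIs. The gate held 144 of 3811 kept barcodes in the naive library, 242 of 4567 in the D11 library and 143 of 4414 in the D14 library, which is 529 cells of 12792 in all.

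The study engrafted BBC2 cells, a pro-B-like leukemia driven by the BCR-FGFR1 kinase fusion and used as a model of SCLL (stem cell leukemia/lymphoma), into wild type Balb/C mice, given in the methods as young adult females. The label gives the genotype as WT in every library. Leukocytes were taken from the PB of naive mice and of leukemic mice at day 11, called the intermediate stage, and at day 14, called the late stage. Red cells were lysed and dead cells removed before droplet capture with 10x Genomics 3′ chemistry. Each condition is 1 library, and how many mice went into a library is not given, so no difference below could be set against a spread between animals. All intervals are exact 95% counting intervals, they cover counting error only, and both leukemic libraries are compared with the same naive library.

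Classical monocytes are the Ly6C-high monocytes that leave the bone marrow through the chemokine receptor CCR2, circulate briefly and enter inflamed tissue. In blood they also give rise to non-classical monocytes (ncMonos), which patrol vessel walls. At rest they carry a tonic level of interferon-stimulated transcripts, and under emergency myelopoiesis younger monocytes with granule protein transcripts can appear in the circulation.

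Defining monocyte markers were found in most gated cells of every library. Ccr2, which the gate did not use, was present in 144 of 144 naive cells, 242 of 242 D11 cells and 139 of 143 D14 cells. Ly6c2 was found in 139, 234 and 130 cells, and the growth factor receptor gene Csf1r in 139, 224 and 134. Of the genes that chose the cells, F13a1 was present in 142, 238 and 136 cells and Fn1 in 141, 239 and 141. Vcan, which encodes the matrix proteoglycan versican, was present in 19.4%, 23.6% and 86.0% of cells, and since it helped to select them this is given as a description. The 3 gate genes together had a median of 32.5, 33.5 and 64 UMIs per cell. Just inside the threshold, at 8 to 11 UMIs of the 3 genes, lay 8, 18 and 8 cells, and just outside it, at 4 to 7 UMIs, lay 18, 21 and 7 barcodes. Ccr2 was detected in 100%, 100% and 87.5% of the cells just inside and in 100%, 90.5% and 28.6% of those just outside. A further 5, 6 and 13 barcodes were lost through the limit on Pparg and Cd300e, and 3, 3 and 7 through the limit on lymphocyte and neutrophil genes.

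Gated cells made up 3.78% of kept barcodes in the naive library (Clopper-Pearson interval 3.20 to 4.43), 5.30% at D11 (4.67 to 5.99) and 3.24% at D14 (2.74 to 3.81). The D11 share was 1.40 times the naive share (1.14 to 1.74), and the D14 share was 0.857 times (0.676 to 1.09), an interval that holds 1. The order depended on the denominator, because kept barcodes dominated by hemoglobin were more common after engraftment. Among barcodes with under 50% hemoglobin UMIs the ratios were 1.96 (1.59 to 2.42) and 1.11 (0.874 to 1.41). For each gated cMono there were 0.806 (0.625 to 1.04) gated ncMonos among naive cells, 0.773 (0.635 to 0.939) for D11 and 3.84 (3.19 to 4.65) for D14.

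UMIs per gated cell were most numerous at D14, and the part of the cells' RNA content in this was not tested. Gated cells carried 2016027, 3395095 and 3129084 UMIs in the order naive, D11 and D14, an order kept wherever values are listed by 3, with a median per cell of 13378.5, 13715 and 20546. The median number of genes per cell was 3796, 3826.5 and 4673, and the median mitochondrial share 2.20%, 2.19% and 3.41%. The barcode filter removed 1980 barcodes over the mitochondrial limit at D14, against 763 and 784 in the naive and D11 libraries. Levels are therefore given as CPM, the UMIs of a gene summed over the gated cells of a library and scaled to a common total, and shares of cells with a UMI are given after thinning to an equal number of UMIs only where the text says so. Other counts of cells with a UMI are at full depth, which was greatest at D14. Pairs of libraries shared 12, 14 and 18 barcode sequences, and 3 of these were gated in the D11 or D14 library, none in both.

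Across all genes, cMonos at D14 stood further from naive cMonos than those at D11 did. Averaged over the 3 libraries, 6102 genes reached 20 CPM, and of these 50 were at least 2-fold higher at D11 (0.819% of the genes measured) and 47 at least 2-fold lower (0.77%). At D14, 195 were at least 2-fold higher (3.2%) and 233 at least 2-fold lower (3.82%). The median absolute log2 ratio was 0.205 at D11 and 0.294 at D14, around medians of -0.015 and 0.0167. Throughout, higher and lower refer to these 2-fold calls or to the values given, and a difference is a difference between libraries. A gene could reach 20 CPM through the library where it was high, so counts of list members are given as descriptions. Named by a fixed rule of size, the genes that stood highest at D14 over naive with the same direction at D11 belonged to the cell cycle (Top2a, Pclaf, Mki67, Stmn1), the acute phase and neutrophil granules (Saa3, Lcn2, Wfdc21, Elane) and the inducible Hsp70 chaperones (Hspa1a, Hspa1b). Those that stood lowest were Ccl5, the class II genes H2-Ab1, H2-Aa and Cd74, Apoe, the transcription factor gene Maf, and the interferon-stimulated genes Rtp4, Ifi44, Isg15 and Ifi44l.

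**Figure D1:**
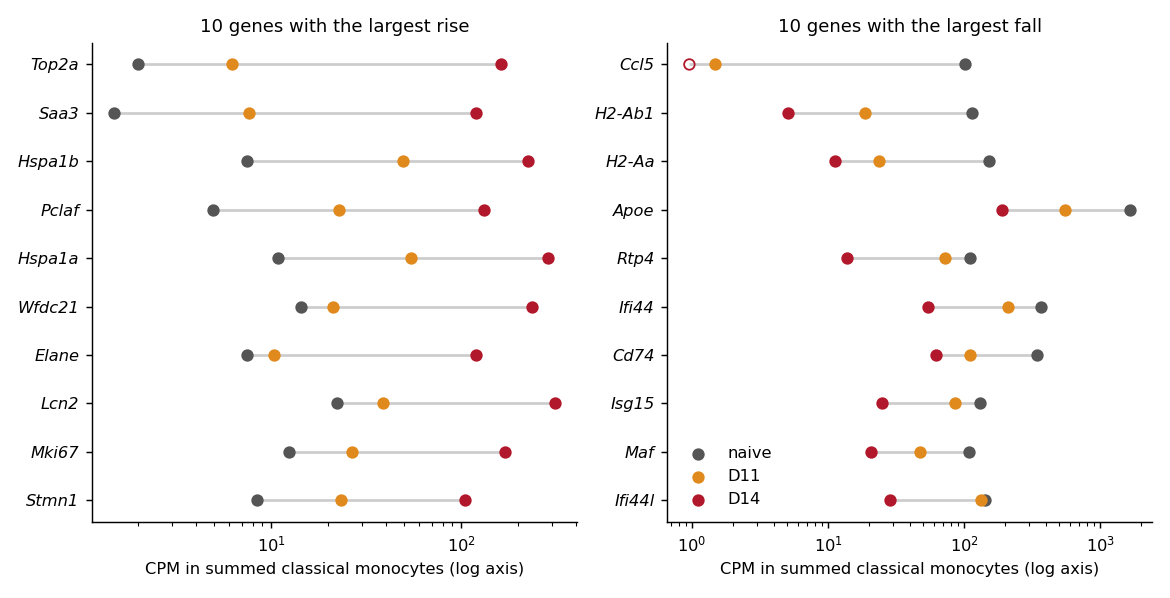
CPM in the summed cMonos of each library (log axis) for the 10 genes named as highest and the 10 named as lowest at D14 relative to naive; each point is 1 library, and the open circle for Ccl5 marks its floor of 3 UMIs, since none was counted at D14. The D11 point lies between the naive and D14 points for all 20 genes, while the naming rule asked only for the same direction at D11 as at D14. For Elane, Wfdc21 and Ifi44l the counting interval of D11 over naive holds both directions.

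Interferon-stimulated genes were lower across the whole list in the D14 library. These genes encode antiviral effectors and sensors that type I interferon switches on. Of 39 listed members found, 34 were measured, and 26 of them were at least 2-fold lower at D14, none at least 2-fold higher, against 3.82% of all genes lower. All 34 had a ratio under 1 at D14, with a median log2 ratio of -1.63. At D11, 3 of 34 were at least 2-fold lower and 33 had a ratio under 1, with a median of -0.43. Their summed level was 11310 CPM in naive cells, 8908 at D11 and 4512 at D14.

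Among the effectors, Ifit3, whose protein binds foreign RNA complexes, had 93 UMIs in naive cMonos, 44 at D11 and 3 at D14. The D14 log2 ratio was -5.59 (-7.89 to -4.00), and UMIs of its close copy Ifit3b may be mixed with it. Rsad2, the gene of the antiviral enzyme viperin, had 41.2, 28.9 and 4.15 CPM, for a D14 log2 ratio of -3.31 (-4.28 to -2.46). Isg15, a ubiquitin-like modifier, had 131, 85.4 and 24.9 CPM, giving log2 ratios of -0.62 (-0.87 to -0.38) for D11 and -2.40 (-2.78 to -2.03) for D14. Each of these was highest in naive cells and lowest at D14. Ifi44 had 367, 210 and 54.3 CPM, giving log2 ratios of -0.80 (-0.95 to -0.65) for D11 and -2.75 (-3.00 to -2.51) for D14. Ifi44l differed between the naive and D11 libraries by less than its counting interval, at 141 and 132 CPM, and had 28.8 at D14. Rtp4, which encodes a receptor transport protein induced by interferon, had 111, 72.8 and 13.7 CPM.

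Members that are abundant in nearly every cMono moved in the same direction. Slfn5, a Schlafen family gene counted among the cMono markers, had 569, 451 and 151 CPM and was detected in 131 of 144 naive cells and 104 of 143 at D14. Ifi27l2a had 2386, 1841 and 680 CPM, for a D14 log2 ratio of -1.81 (-1.89 to -1.74). Ifitm3, whose product blocks virus entry, had 3743, 3204 and 1956 CPM, and at -0.94 lay short of 2-fold. Irf7, the transcription factor that amplifies the response, had 210, 127 and 47.9 CPM, a log2 ratio of -2.13 (-2.41 to -1.86). Both Stat2 and Irf9, which carry the interferon signal, had D14 log2 ratios nearer to 0 (-0.62 and -0.66) than the list median. Stat2 had 76.4, 54.5 and 49.5 CPM, and Irf9 had 100, 95.1 and 63.3. Targets of interferon gamma also differed less, with 1 of 8 members at least 2-fold lower at D14 (3.82% of all genes) and a list median of -0.29.

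**Figure D2:**
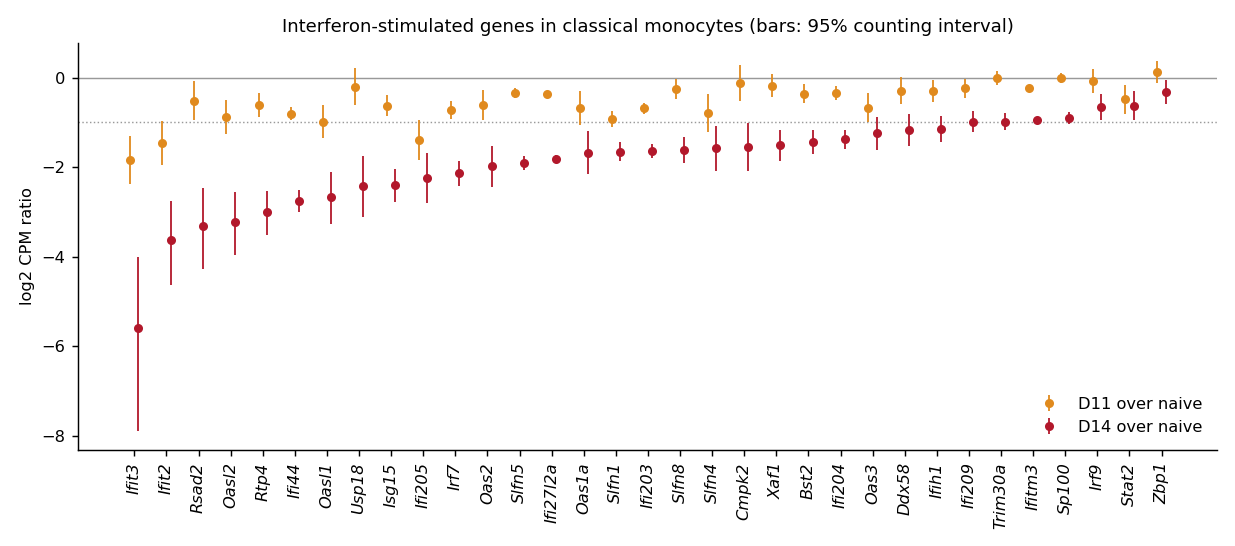
Log2 CPM ratio over naive for 33 of the 34 interferon-stimulated genes measured in cMonos, with D11 and D14 side by side and bars for the 95% counting interval; the dotted line is 2-fold lower. Every D14 point lies below 0, and 26 lie below the dotted line, against 3 at D11.

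The lower level was seen across the cells and not in a few. Each cell's UMIs of the list had a median of 110 per 10000 in naive cMonos, 86.4 at D11 and 46.1 at D14. The 90th percentile at D14 was 76.5 and the 10th percentile of naive cells 61.2, so the ranges overlapped. In cells with under 3 UMIs of each of the cell cycle and primary granule sets described below, the medians were 111, 87.7 and 49.1. Thinned to 4000 UMIs, Isg15 was detected in 43 of 141 cells, 44 of 233 and 12 of 143, or 30.5%, 18.9% and 8.39%. Ifi44 was detected in 61.0%, 42.1% and 14.7%.

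Many promoters of these genes hold a short repeat. The repeat GAAANNGAAA is the core of the element bound by STAT and IRF factors, and the 200 bases before the start site are shown for 4 members that differ in size of change, with every match on either strand in capitals. They are from RefSeq on GRCm38.p6, written 5′ to 3′ on the strand of the gene. Isg15 is at chr4:156200819-156201018 (minus strand), Ifit3 at chr19:34583329-34583528 (plus), Rsad2 at chr12:26456453-26456652 (minus) and Slfn5 at chr11:82951902-82952101 (plus).
Isg15: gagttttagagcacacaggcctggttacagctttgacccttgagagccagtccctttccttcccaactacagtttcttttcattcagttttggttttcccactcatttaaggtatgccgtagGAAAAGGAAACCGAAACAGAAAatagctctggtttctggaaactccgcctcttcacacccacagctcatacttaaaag
Ifit3: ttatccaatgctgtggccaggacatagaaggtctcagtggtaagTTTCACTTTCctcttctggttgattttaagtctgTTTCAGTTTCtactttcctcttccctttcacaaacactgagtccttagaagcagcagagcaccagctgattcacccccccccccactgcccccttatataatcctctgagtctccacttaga
Rsad2: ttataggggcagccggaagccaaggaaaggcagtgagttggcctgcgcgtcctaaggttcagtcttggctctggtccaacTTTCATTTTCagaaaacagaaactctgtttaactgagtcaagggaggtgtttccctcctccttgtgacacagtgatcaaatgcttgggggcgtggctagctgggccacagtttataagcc
Slfn5: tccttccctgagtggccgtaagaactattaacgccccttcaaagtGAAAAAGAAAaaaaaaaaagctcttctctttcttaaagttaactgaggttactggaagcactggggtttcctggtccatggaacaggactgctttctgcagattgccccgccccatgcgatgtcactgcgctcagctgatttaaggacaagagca
The first match lies 78 bases before the start in Isg15, where 3 matches overlap, 156 in Ifit3, which has 2 matches, 120 in Rsad2 and 155 in Slfn5. Over windows of 250 bases before to 50 after the start, the repeat was found in 19 of the 32 listed genes with a promoter entry (59.4%) and in 12 of the 21 that were at least 2-fold lower at D14 (57.1%), against 3.99% of 27025 genes. A match is a stretch of letters and not a measured binding site.

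MHC class II transcripts were lower after engraftment, and most of them came from few cells. H2-Aa, H2-Ab1, H2-Eb1 and Cd74 encode the class II chains and their chaperone, the invariant chain, which present antigen to CD4 T cells. H2-Ab1 had 114 CPM in naive cMonos, 18.9 at D11 and 5.11 at D14, giving log2 ratios of -2.60 (-3.02 to -2.19) for D11 and -4.48 (-5.31 to -3.75) for D14. H2-Aa had 153, 23.9 and 11.2 CPM and Cd74 had 342, 110 and 61.7. In the naive library 15 cells held every H2-Ab1 UMI, and 10 cells of each library held 89.8%, 77.6% and 71.9% of the UMIs of the 4 genes. The naive cells with the most held 551, 245 and 140 of 1338 such UMIs, a concentration that the counting intervals do not reflect. Any UMI of the 4 genes was found in 42, 63 and 59 cells. Cells with at least 3 such UMIs numbered 21 of 144, 21 of 242 and 14 of 143, and all 21, 21 and 14 of them had Ccr2. In the list of class II presentation genes 4 of 7 measured members were at least 2-fold lower at D11 and 4 of 7 at D14, against 0.77% and 3.82% of all genes, and the members short of 2-fold included the protease gene Ctss at 1422, 1147 and 806 CPM. Without the cells that had 3 or more class II UMIs, the list median was 0.42 at D11 and 0.19 at D14, against -1.63 and -2.47 with all cells.

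In the list of dendritic cell-like monocyte genes, which also holds the 4 class II genes, 4 of 7 measured members were at least 2-fold lower at D11 and 6 at D14, against 0.77% and 3.82% of all genes. The further members at D14 were Batf3 and Flt3. Batf3, a transcription factor of dendritic cell development, had 78.9, 43.3 and 14.7 CPM, a log2 ratio of -2.42 (-2.93 to -1.94) at D14, and was detected in 80, 88 and 23 cells. Without the class II cells its D14 log2 ratio was -2.28. Irf4 had 35.2, 21.5 and 5.43 CPM and was detected in 47, 58 and 8 cells. Flt3, the receptor for the dendritic cell growth factor, had 31.2, 39.2 and 11.2 CPM. Cd209a, a lectin gene that marks this fate, had 24, 82 and 0 UMIs in 9, 11 and 0 cells and lay under the minimum for measured genes. Batf3, Irf4, Flt3 and Cd209a were lowest at D14 and did not share an order between the naive and D11 libraries. Of the 7 measured members of the list, 1 went the other way at D14, with a higher level than in naive cells.

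Apoe and Maf, expressed in macrophage-like cells, were also lower. Apoe, the lipid carrier apolipoprotein E, had 1665 CPM in naive cells, 546 at D11 and 189 at D14, and was detected in 118 of 144, 146 of 242 and 58 of 143 cells. Its log2 ratios were -1.61 (-1.69 to -1.53) for D11 and -3.14 (-3.27 to -3.01) for D14. Without the cells with cell cycle or primary granule transcripts described below, the D14 log2 ratio of Apoe was -2.31. Maf had 108, 47.4 and 20.8 CPM, giving log2 ratios of -1.19 (-1.49 to -0.89) for D11 and -2.38 (-2.80 to -1.97) for D14. Neither difference was confined to cMonos. At D14 Apoe had log2 ratios of -2.41 in gated ncMonos, -3.21 in neutrophils, -4.41 in the B cell gate and -1.71 in T cells. Those of Maf, in the same order, were -1.79, -1.64, -2.13 and 1.39, so it was higher in T cells. The part of free RNA in these values was not tested. In the list of lipid handling genes 2 of 14 measured members were at least 2-fold lower at D14, against 3.82% of all genes, Apoe and the cholesterol exporter gene Abcg1. Among Fc receptors, 2 of 7 were at least 2-fold lower at D14, set against the same share. Fcgr1, the high-affinity IgG receptor, had 168, 172 and 72 UMIs out of totals of 2016027, 3395095 and 3129084. The neonatal Fc receptor gene Fcgrt had 84.3, 55.7 and 36.1 CPM.

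Ccl5 had the largest negative ratio of the named genes but rested on few cells. This T cell-attracting chemokine had 206 UMIs in 8 naive cells, 5 in 5 D11 cells and none at D14, at least 107-fold lower against a floor of 3 UMIs. With doublets removed by score the D14 bound against the same floor was a log2 ratio of -1.75 or lower, against -6.74 with all cells. The D11 log2 ratio was then -1.45, against -6.12 with all cells. Most of the naive Ccl5 UMIs thus lay in cells removed as doublets. NK cell markers, which accompany Ccl5 in lymphocytes, summed to 96.2 CPM in the naive gate, 2.95 at D11 and 5.11 at D14, with Gzma the most abundant at 40.7 CPM in naive cells. Their part in the Ccl5 difference was not tested.

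Acute phase and granule genes were higher in the D14 cMonos, and in more cells. Chil3, a chitinase-like lectin gene of myeloid cells, had 125 CPM in naive cells, 253 at D11 and 1393 at D14, giving log2 ratios of 1.01 (0.81 to 1.22) for D11 and 3.47 (3.29 to 3.66) for D14. It was detected in 54 of 144, 143 of 242 and 121 of 143 cells. Lcn2, the iron-sequestering lipocalin, had 22.3, 38.9 and 312 CPM, for a D14 log2 ratio of 3.80 (3.37 to 4.27). Wfdc21 had 14.4, 21.2 and 236 CPM. Saa3, a serum amyloid A gene, had 3, 26 and 376 UMIs, for a D14 log2 ratio of 6.34 (4.78 to 8.62), and 86.2% of its D14 UMIs lay in 10 cells. Of 25 listed neutrophil granule and neutrophil-like monocyte genes 13 were measured, and Elane, for 1, reached the mean of 20 CPM only through D14. Of the 13, 3 were at least 2-fold higher at D11 and 7 at D14, against 0.819% and 3.2% of all genes. Their medians were 0.47 and 1.85, and the D14 values are a description for that reason. Without the cells with cell cycle or primary granule transcripts described below, 3 of the 13 were at least 2-fold higher at D11 and 6 at D14, and the medians were -0.03 and 0.98. At D11 Lcn2 then stood at a log2 ratio of -0.16 and Wfdc21 at -0.07. Both signs turned, though with all cells the D11 interval of Wfdc21 (-0.08 to 1.23) already held both directions. With doublets removed by score instead, both ratios were larger. Lcn2 stood at 3.60 for D11 and 6.58 for D14, and Wfdc21 at 2.62 and 6.30. Without the cells that had a UMI of the neutrophil genes Ly6g, Cxcr2, Retnlg or Stfa2l1, 7 of the 13 were higher at D11 and 10 at D14, with medians of 1.12 and 2.47. Hp, the hemoglobin scavenger haptoglobin, had 546, 729 and 1011 CPM and stayed under 2-fold. Cd177, a neutrophil surface gene, went the other way at 117, 86.0 and 26.2 CPM.

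Neutrophil markers in the gate did not move as 1 group. Of 9 measured members none was at least 2-fold higher and 4 were lower at D11, with a median of -0.96, and 1 was higher and 3 were lower at D14, with a median of -0.11. Over the alternatives the median ran from -1.10 to 0.17 at D11 and from -1.005 to 1.70 at D14, with the highest value of each without the cells that had neutrophil UMIs, so its sign and size rested on which cells were kept. The shares of all genes were 0.819% higher and 0.77% lower at D11 and 3.2% and 3.82% at D14. The 15 neutrophil markers summed to 3840 CPM in the naive gate, 2746 at D11 and 7291 at D14, with S100a9 the most abundant in the naive and D11 libraries and S100a8 at D14. None of the 15 was at 0 in any library, but the gate limited Ly6g, which had 3, 4 and 2 UMIs. Cxcr2, a receptor that defines mature neutrophils, had 159, 54 and 50 UMIs that lay in 22, 13 and 13 cells. In naive cells 82.9% of the S100a9 UMIs were in 10 cells. Without every cell that had a UMI of Ly6g, Cxcr2, Retnlg or Stfa2l1, 117, 219 and 82 cells remained. The D14 ratios of Lcn2, Wfdc21, Chil3 and S100a8 were then larger, and those of the primary granule genes smaller. Lcn2 was then at 1.90, 24.1 and 252 CPM, Wfdc21 at 0, 16.5 and 225, and Chil3 at 109, 236 and 1412. S100a8 went from 1024, 1123 and 3683 CPM with all cells to 63.5, 680 and 3001 without them. Elane had 14, 26 and 42 UMIs in the remaining cells, against 15, 35 and 373 with all cells, and its log2 ratios there were -0.05 at D11 and 1.46 at D14. Prtn3 stood at 2.47 against 3.50 at D14, and Mpo kept 0, 6 and 5 UMIs.

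As a gauge of free RNA, shares are also given for T cells, which should lack these genes. The T cell gate set no limit on monocyte genes, so doublets of T cells with other cells can add to these shares. Free RNA and doublets were not told apart. With every cell thinned to 2000 UMIs, S100a8 was detected in 18.3%, 28.2% and 64.3% of cMonos and in 6.78%, 8.47% and 32.7% of T cells. For Lcn2 the shares were 0.704%, 4.98% and 28.7% of cMonos and 0.335%, 0.403% and 1.92% of T cells. For Chil3 they were 13.4%, 30.7% and 66.4% of cMonos and 0.0838%, 0% and 0.962% of T cells. The median depth of T cells before thinning was 9355.5, 7771.5 and 8207 UMIs. Saa3, whose difference rests on few cells, is shown with the 200 bases before its start at chr7:46715677-46715876 (minus strand, GRCm38.p6, RefSeq), with a match to TTGCNNAA on the other strand, letters that C/EBP factors bind, in capitals.
Saa3: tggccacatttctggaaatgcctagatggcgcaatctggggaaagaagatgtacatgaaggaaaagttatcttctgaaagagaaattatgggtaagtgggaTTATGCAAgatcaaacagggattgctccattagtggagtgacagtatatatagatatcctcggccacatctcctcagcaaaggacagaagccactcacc
The match lies 99 bases before the start. These letters were found in 9 of the 20 granule and neutrophil-like genes with an entry (45%) and in 12.2% of all genes. Cebpb, the C/EBP gene of emergency myelopoiesis, had 691, 977 and 984 CPM, and Cebpa had 132, 122 and 55.6.

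Cells with cell cycle and primary granule transcripts were found mainly at D14. Top2a, the DNA topoisomerase of dividing cells, had 1.98, 6.19 and 162 CPM, for a D14 log2 ratio of 6.35 (4.98 to 8.23). Mki67 had 12.4, 26.5 and 169 CPM, Pclaf had 4.96, 22.7 and 131, and Stmn1 had 8.43, 23.3 and 105. Of 29 listed cell cycle genes 13 were measured, and members such as Top2a reached the mean of 20 CPM only through D14. Of the 13, 7 were at least 2-fold higher at D11 and 11 at D14, against 0.819% and 3.2% of all genes. Their medians were 1.10 and 3.32. Since the minimum level favors members that are high at D14, these values are a description. Elane, neutrophil elastase, had 7.44, 10.3 and 119 CPM, and 93.3% of its D14 UMIs lay in 10 cells. Prtn3, proteinase 3, had 21.8, 63.6 and 246 CPM. Mpo, myeloperoxidase, had 0, 7 and 164 UMIs, at least 35.2-fold higher at D14 against a floor of 3 UMIs in naive cells, but most of its D14 UMIs lay in cells that also had a UMI of Ly6g, Cxcr2, Retnlg or Stfa2l1, since 5 of the 164 remained without those cells. Elane likewise kept 42 of 373 D14 UMIs and Prtn3 241 of 770. The 8 progenitor markers summed to 32.2, 84.2 and 450.6 CPM, with Prtn3 the most abundant. Only Prtn3 and Elane were measured and 6 were not, and Elane reached the mean of 20 CPM only through D14. Both were at least 2-fold higher at D14, against 3.2% of all genes, which is given as a description. The stem cell genes Kit and Cd34, which were under the level to be measured, had 0, 2 and 2 UMIs and 1, 5 and 15 UMIs.

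Cells with at least 3 UMIs of Mki67, Top2a, Pclaf and Stmn1 numbered 1 of 144, 12 of 242 and 51 of 143. Cells with at least 3 UMIs of Elane, Prtn3, Mpo, Ctsg and Ms4a3 numbered 3, 28 and 41. Both sets of genes were chosen after their values were seen. Where cells with cycling or granule transcripts are left out, the cells meant are those that reached 3 UMIs of either set. At D14 the sets met in 27 cells, with 24 in the first set only and 14 in the second only, so that 45.5% of the D14 cells had either, against 14.0% at D11 and 2.08% in the naive library. Thinned to 4000 UMIs, the first set reached 3 UMIs in 1 of 141, 7 of 233 and 22 of 143 cells, the last being 15.4% (9.90 to 22.4). The second set did so in 0.709%, 1.72% and 9.79%. Of the 65 D14 cells with either, 100% had Ccr2 and 98.5% had Ly6c2, against 94.9% and 84.6% of the other 78. These shares are at full depth, and the median was 25032 UMIs in the 65 cells and 18859.5 in the other 78. Without the cells of either set Top2a and Mki67 were no longer higher at D14, at log2 ratios of -0.57 and -0.19. Of the 13 cell cycle genes 5 then stood at least 2-fold higher, with a list median of 0.30.

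Because the engrafted leukemia is of the B lineage, B lineage transcripts were counted in the gate. The 12 pro-B and B markers summed to 77.4, 69.2 and 61.7 CPM in gated cMonos, against 13630, 9992 and 8491 in the B cell gate, with 3, 2 and 1 markers at 0. Ighm was their most abundant gene in the naive and D11 libraries, and Ebf1 was at D14, with 8, 16 and 58 UMIs. The summed level was not higher after engraftment, but Ebf1 was higher at D14, for a log2 ratio of 2.22 (1.15 to 3.50), and Vpreb1 had 1, 5 and 11 UMIs. The gate allows at most 1 UMI of Cd79a. Primary granule transcripts had 30.8, 82.2 and 445 CPM in cMonos and at most 10.1 CPM in any library of the other gates.

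**Figure D3:**
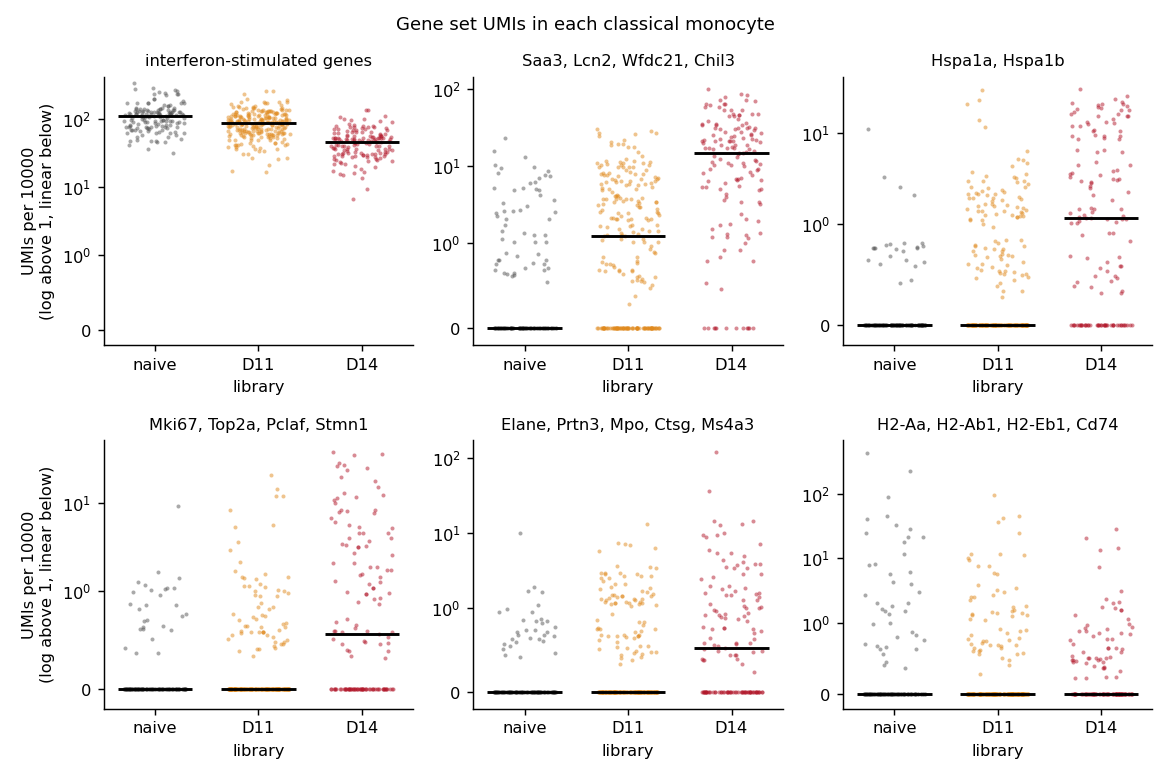
UMIs of 6 gene sets per 10000 UMIs in each gated cMono (log scale above 1, linear below), by library; points are cells and the line is the median over cells. Interferon-stimulated UMIs are spread over all cells with a lower median at D14 (46.1 against 110), and the cycling, granule and class II UMIs lie in some cells only.

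The inducible Hsp70 genes stood out among the chaperones. Hspa1a had 10.9 CPM in naive cMonos, 54.8 at D11 and 286 at D14, giving log2 ratios of 2.33 (1.69 to 3.04) for D11 and 4.71 (4.10 to 5.39) for D14. Hspa1b had 7.44, 49.2 and 226 CPM, giving 2.72 (1.96 to 3.59) and 4.92 (4.19 to 5.77). They are near-identical copies that lie side by side, so the split of UMIs between them is uncertain. Only these 2 of 17 measured chaperone genes were at least 2-fold higher, at D11 and at D14, against 0.819% and 3.2% of all genes. The constitutive Hspa8 had 1191, 1168 and 1521 CPM, Hsp90aa1 had 142, 192 and 256, and Bag3, an Hsp70 co-chaperone, had 20.3, 26.8 and 39.9. Cells with at least 3 UMIs of the pair numbered 4, 34 and 71, and after thinning to 4000 UMIs they made up 0.709%, 4.29% and 25.2%. At 2000 UMIs Hspa1a was detected in 30.1% of D14 cMonos and 7.69% of D14 T cells. The part of free RNA in these shares was not tested. Hspa1a is shown because its promoter holds the heat shock element GAANNTTC, in capitals, in the 200 bases before its start at chr17:34972157-34972356 (minus strand, GRCm38.p6, RefSeq).
Hspa1a: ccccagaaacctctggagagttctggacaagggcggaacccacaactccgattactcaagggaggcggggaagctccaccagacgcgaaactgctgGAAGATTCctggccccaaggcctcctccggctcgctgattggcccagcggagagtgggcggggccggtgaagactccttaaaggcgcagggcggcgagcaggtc
The match starts 104 bases before the start site. These letters, which read the same on both strands, were found in 10 of 15 chaperone genes with an entry (66.7%) and in 9.04% of all genes.

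Cells gated with other markers in the same libraries shared some of these differences. Interferon-stimulated genes had a log2 ratio of summed CPM at D14 of -1.33 in cMonos, -1.09 in ncMonos and -0.55 in neutrophils. It was -2.15 in the B cell gate, which can hold the pro-B-like leukemia cells, but 0.10 in T cells. That B cell gate held 333, 337 and 781 cells, with a median of 6457, 7336 and 31646 UMIs. B cell values below are those of this gate and not of normal B cells alone. How far they compare unlike cells was not tested. The Hsp70 pair was higher in all 5 gates at D14, by 4.80 in cMonos and by 3.72 to 6.51 in the others. The 4 acute phase and Chil3 transcripts were higher in cMonos (3.65), neutrophils (2.69) and ncMonos (1.36) and lower in B cells (-1.40). Their levels were 1433, 3765 and 9253 CPM in neutrophils and 29.9, 88.6 and 76.7 in ncMonos. In T cells, used above as a gauge of free RNA, they had 7.09, 12.3 and 54.1 CPM, a log2 ratio of 2.93. Cycling transcripts stood at 4.35 in cMonos, 4.08 in B cells, 0.61 in neutrophils, 0.19 in ncMonos and 0.01 in T cells. Class II transcripts stood at -3.06 in cMonos, -4.45 in ncMonos, -6.12 in B cells, -1.62 in neutrophils and 0.40 in T cells. At D11 they stood at -2.06 in cMonos and -1.60 in B cells, but at 1.48 in ncMonos, 1.49 in neutrophils and 2.68 in T cells. The part of free RNA in the values of each gate was not tested. No test of a difference between gates was possible with 1 library per condition.

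**Figure D4:**
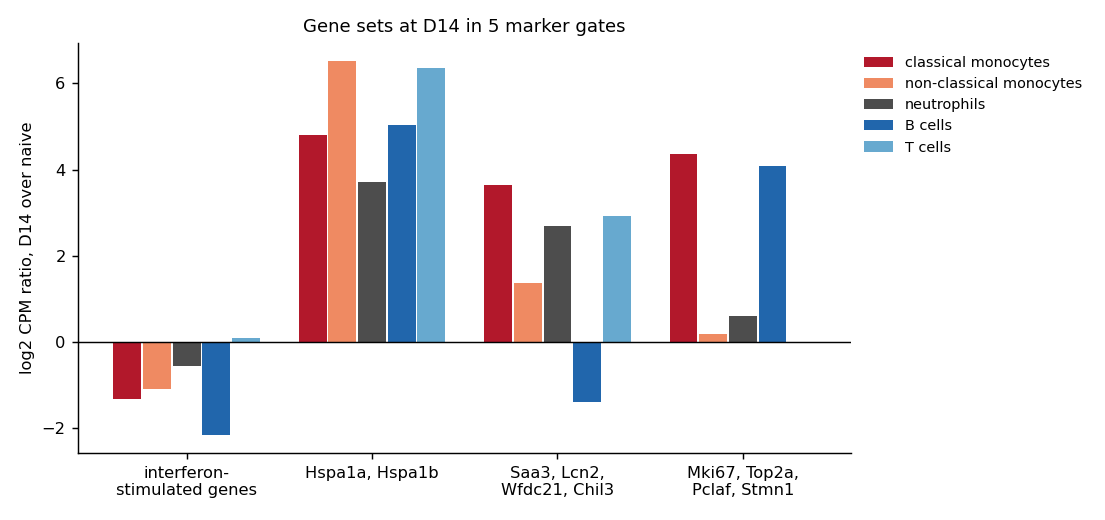
Log2 ratio of summed CPM at D14 over naive for 4 gene sets in 5 marker gates; each bar is 1 gate of 1 library over the same gate of the naive library, so no error bar can be drawn. Interferon-stimulated genes lie below 0 in 4 of 5 gates and the Hsp70 pair lies above 0 in all 5. The B cell gate can hold leukemia cells after engraftment.

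Some genes of glycolysis were higher at D14. Of 17 measured members 5 were at least 2-fold higher at D14 and 1 was lower, against 3.2% and 3.82% of all genes, with a median of 0.65, and none passed 2-fold at D11, with a median of 0.38. Pgk1, phosphoglycerate kinase, had 103, 180 and 280 CPM, giving log2 ratios of 0.81 (0.58 to 1.04) for D11 and 1.44 (1.22 to 1.67) for D14. Gapdh had 392, 699 and 995 CPM, for a D14 log2 ratio of 1.34 (1.23 to 1.46). The glucose transporter gene Slc2a1, the mutase gene Pgam1 and the isomerase gene Tpi1 were the other members above 2-fold. Hk2, hexokinase at the entry of the pathway, was lower at 127, 71.3 and 52.7 CPM. Without the cells with cycling or granule transcripts, 2 of the 17 members were at least 2-fold higher at D14 and the median was 0.50.

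Some NF-kB genes were higher at D14 and some immediate early genes lower. Of 13 NF-kB feedback genes and targets, 3 were at least 2-fold higher at D14, against 3.2% of all genes, with a list median of 0.72, and none at D11, with 0.31. Nfkbia, the inhibitor that NF-kB induces, had 222, 391 and 450 CPM, and Nfkb2 and Tnip1 were the others. Of 16 immediate early genes, 4 were at least 2-fold lower at D14, against 3.82% of all genes, and 1 was higher, with a median of -0.52. At D11 none was lower and 1 was higher, with a median of 0.0151. Dusp1, a phosphatase that turns off MAP kinases, had 604, 463 and 136 CPM, a log2 ratio of -2.16 (-2.32 to -1.99). Fos had 948, 816 and 391 CPM and Atf3 had 247, 150 and 65.5. Ier3, which answers to NF-kB as well, was the member that was higher, at 10.4, 25.3 and 41.9 CPM.

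Of 11 measured cytokine and chemokine genes, 6 were at least 2-fold lower at D14 and none was higher, against 3.82% and 3.2% of all genes, with a median of -1.12. At D11 1 was lower, with a median of -0.31. Ccl6 had 922, 679 and 354 CPM, a log2 ratio of -1.38 (-1.49 to -1.27). Il15, which sustains NK and memory T cells, had 60.0, 58.9 and 16.3 CPM, and Il18 had 50.6, 32.1 and 18.5. Il1b had 205, 115 and 94.3 CPM and lay in 57, 82 and 53 cells. Of 8 trafficking receptors 2 were at least 2-fold lower at D11, Ccr1 and Cxcr2, against 0.77% of all genes, with a median of -0.54, and 1 was higher and 1 lower at D14, with a median of -0.14. Without the cells that had neutrophil UMIs these medians turned to 0.07 and 0.21. Ccr2 had 1108, 852 and 590 CPM, with log2 ratios of -0.38 and -0.91. Cx3cr1, the fractalkine receptor of patrolling cells, had 205, 125 and 105 CPM, and the formyl peptide receptor gene Fpr2 was higher at 39.7, 42.7 and 124.

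Some markers of ncMonos were higher at D14. Of 16 measured members 6 were at least 2-fold higher at D14, against 3.2% of all genes, and none was lower, with a median of 0.66. At D11 none was higher and 1 was lower, with a median of 0.16. The list summed to 1487, 1427 and 1928 CPM in cMonos. In T cells, which should lack most of these transcripts, it summed to 468, 622 and 869 CPM, with 8 of the 16 at least 2-fold higher at D14, and gated ncMonos numbered 116, 187 and 549. With cells thinned to 2000 UMIs, Tcf7l2 was detected in 4.23%, 3.32% and 13.3% of cMonos and in 0.586%, 0.403% and 2.88% of T cells. The part of free RNA in these differences was not tested. The gate itself limits Pparg and Cd300e, which are not on this list. Tcf7l2, a transcription factor of ncMonos, had 15.9, 21.2 and 70.9 CPM, a log2 ratio of 2.16 (1.62 to 2.74), and was detected in 20, 38 and 64 cells. Gngt2 had 135, 431 and 887 UMIs, and Treml4 had 19.3, 26.8 and 55.3 CPM. Without the cells with cycling or granule transcripts 11 of the 16 were at least 2-fold higher at D14, with a median of 1.20, and Tcf7l2 stood at a log2 ratio of 2.85. Of the transcription factors of monocyte fate, Nr4a1, which ncMonos need, had 67.5, 90.1 and 119 CPM. Spi1 had 497, 451 and 531 CPM and Klf4 had 204, 206 and 194, each within its counting interval at D14.

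Genes linked with suppressor monocytes held both directions. Of 16 measured members 2 were at least 2-fold higher at D14, Clec4e and Cd24a, and 2 were lower, Cd84 and Lgals9, against 3.2% and 3.82% of all genes, with a median of 0.055. Nos2 had no UMI in any library, which allows up to 3 UMIs in each. Cd274, the gene of the checkpoint ligand PD-L1, had 9, 10 and 65 UMIs in 6, 8 and 35 cells, and Il10 had 3, 5 and 19. The last values lie under the minimum for measured genes and their log2 ratios at D14 were 2.22 (1.21 to 3.41) and 2.03 (0.26 to 4.43). Lgals9, which encodes galectin-9, was lower at 134, 78.9 and 36.1 CPM.

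**Figure D5:**
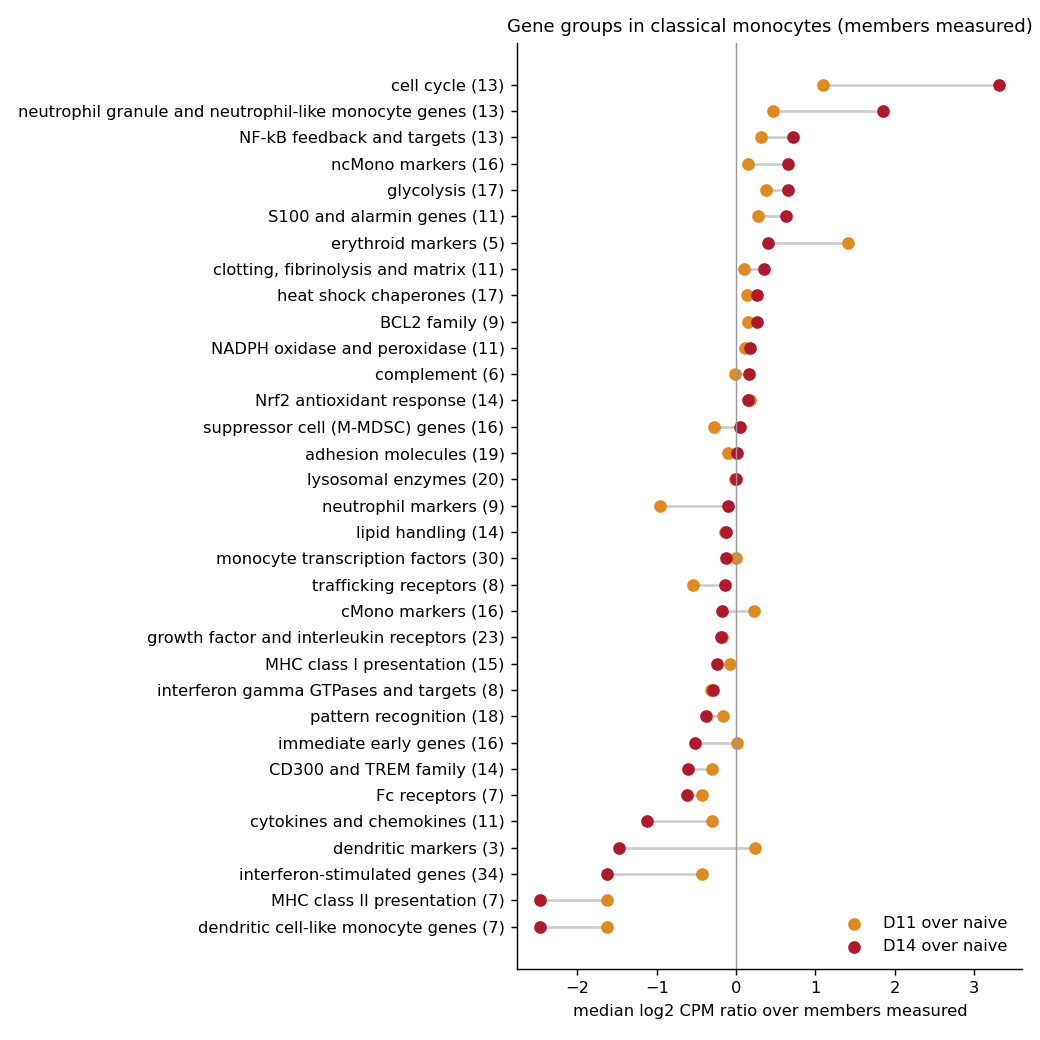
Median log2 CPM ratio over naive for each gene group with at least 3 measured members (number in brackets), with D11 and D14 joined by a line. Cell cycle and granule genes lie highest and class II, dendritic cell-like and interferon-stimulated genes lowest at D14, while most groups lie within 1 log2 unit of 0.

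Other groups had medians near that of all genes. The medians at D14 were 0.15 for 14 Nrf2 antioxidant genes, 0.18 for 11 genes of the NADPH oxidase and peroxidase group, 0.16 for 6 complement genes, -0.235 for 15 MHC class I presentation genes and 0.00918 for 19 adhesion genes. Of 20 lysosomal enzymes 2 were at least 2-fold lower at D14, Lgmn and Lyz2, against 3.82% of all genes. Lyz2, lysozyme, stood at 24988, 20761 and 12146 CPM, and F10, coagulation factor X, was higher at 72.9, 156 and 262. The CD300 and TREM family stood lower, with medians of -0.30 at D11 and -0.60 at D14. Of its 14 measured members 4 were at least 2-fold lower at D14, against 3.82% of all genes, among them Cd300c2 at 160, 93.7 and 62.0 CPM, and Treml4 was the 1 that was higher.

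The markers of cMonos held mixed directions. Of 16 measured members Chil3 was at least 2-fold higher at D11 and D14, and Ly6c1, Ifi27l2a, Slfn5 and Ly86 were at least 2-fold lower at D14, with list medians of 0.23 and -0.18. Of all genes 0.819% were higher at D11, and 3.2% were higher and 3.82% lower at D14. Ly6c2, which encodes the Ly6C antigen used to sort these cells, had 919, 1102 and 614 CPM, so it was highest at D11 and lowest at D14. Ly86, a partner of a Toll-like receptor homolog, had 439, 315 and 174 CPM. Of 30 transcription factor genes, Id1 and Tcf7l2 were at least 2-fold higher at D14 and Irf4, Cebpa and Maf lower, against 3.2% and 3.82% of all genes. Id1, an inhibitor of helix-loop-helix factors, had 17.9, 38.3 and 64.6 CPM.

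Receptor, survival and clotting genes are given here by their counts at D14, to be read against 3.2% of all genes higher and 3.82% lower. Of 18 pattern recognition genes Clec4e, the Mincle receptor, was at least 2-fold higher at D14, at 34.7, 43.9 and 86.3 CPM, and none was lower. Of 23 growth factor and interleukin receptors 2 were at least 2-fold lower, Csf3r and Flt3, and of 9 BCL2 family genes 2 were higher, Bak1 and Pmaip1. Csf3r, the G-CSF receptor of neutrophils and their precursors, had 282, 219 and 125 CPM. Of 11 clotting and matrix genes F10 was at least 2-fold higher at D14 and the thrombospondin gene Thbs1 and the thrombomodulin gene Thbd lower. Of 11 S100 and alarmin genes S100a8 and S100a1 were at least 2-fold higher, with a list median of 0.63.

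The naming rule also picked genes with their highest or lowest level at D11. Among them the highest included Rfx2 at 51.1, 140 and 66.2 CPM, Fosb, an immediate early gene, at 100, 191 and 75.1, and Smyd3 at 98.7, 153 and 93.3. The lowest were the histone gene Hist1h1e at 134, 55.4 and 105 CPM, S100a9 at 2064, 1232 and 3189, Gm10076 at 102, 64.2 and 115, and Bola2 at 112, 71.3 and 114. Of these, Rfx2 and Hist1h1e passed 2-fold at D11. Without cycling or primary granule cells Hist1h1e had log2 ratios of -1.28 at D11 and -2.135 at D14 (-1.27 and -0.35 with all cells), and was then lowest at D14. The S100a9 value turned with the cells used, from a log2 ratio at D11 of -0.74 to 0.49 with doublets removed and 4.51 without cells that had neutrophil UMIs.

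Markers of the remaining cell types in the gate were few except for hemoglobin. Hemoglobin made up 1.01%, 2.69% and 1.34% of the UMIs of gated cells, with 98.9%, 77.9% and 90.2% of it in 10 cells of each library. The 7 erythroid markers found summed to 10120, 26940 and 13440 CPM, with Hbb-bs the most abundant, and all 5 measured members were at least 2-fold higher at D11, against 0.819% of all genes. The 9 T cell markers summed to 17.4, 5.60 and 2.24 CPM and the 8 platelet markers to 34.2, 10.3 and 35.5. The 12 dendritic markers summed to 190, 176 and 68.4 CPM, and the 6 basophil and mast cell markers to 0, 0.884 and 0. Their part in the differences above was not tested.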

How the data were processed

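Per the labels, PB leukocytes of Balb/C mice were captured with 10x Genomics 3′ chemistry. The authors deposited filtered UMI counts for 32285 features. The submitters' processing notes name Cell Ranger 7.1.0 and mm10, while the deposited matrix headers name Cell Ranger 5.0.1, and which was used is not settled here. No cell annotation was used. Members and gene lists were chosen with earlier results of these data known, and the sets used per cell after their values were seen.

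Here, counts were summed over gated cells of a library and scaled to CPM, with Python 3.11.15, numpy 2.4.6 and scipy 1.17.1. A gene was measured at 20 CPM or more, averaged over libraries, and a call was a 2-fold ratio. Named genes, leaving out gate, mitochondrial, ribosomal and hemoglobin genes, were those with at least 100 CPM in the naive or D14 sum and the 10 largest and 10 smallest D14 ratios with the same direction at D11, then, among genes with at least 100 CPM in any sum, the 4 that were highest and the 4 that were lowest at D11 relative to both other libraries. With 1 library per condition no test was run. Intervals are exact, conditional binomial for ratios and Clopper-Pearson for shares. A count of 0 was set to 3 UMIs. Thinning drew 4000 or 2000 UMIs per cell; at 4000 it left out 3 naive, 9 D11 and 0 D14 cells. The ncMono, neutrophil, B and T gates needed at least 3 UMIs of Pparg and Cd300e, Ly6g and Cxcr2, Cd79a, or Cd3e and Cd3g, in that order. The ncMono and neutrophil gates had limits on the markers of the other gates. The B and T gates limited only each other's genes and Ly6g, and not monocyte genes. Doublets were kept, and removed as an alternative by Scrublet score (scanpy 1.11.5). TMM factors (edgeR 4.0.16) served as an alternative scaling. The ratio and interval code was tested on simulated counts. Promoters are from RefSeq (GRCm38.p6). A few genes that entered the counts are not reported here by name.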

Additional observations from a re-analysis of the deposited data

How the results depend on the processing

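No paired analysis was possible because each condition is 1 library, and no replicate could be left out. The share of gated cells at D11 over naive was 1.83 under a stricter barcode filter (500 genes, 5% mitochondrial) and 1.07 over all deposited barcodes, where the D14 ratio was 0.629. Counts of genes past the fold, in the order D11 higher, D11 lower, D14 higher and D14 lower, were 22, 14, 83 and 112 at a mean of at least 50 CPM, 218, 223, 562 and 519 at 5 CPM, and 249, 287, 686 and 625 at 1.5-fold. The next alternatives were chosen after seeing the data. Without cycling or primary granule cells 33 genes were at least 2-fold higher at D11, Top2a turned to -0.57 and Mki67 to -0.19 at D14. Without class II cells H2-Ab1 turned to 0.49 and Cd74 to 0.25 at D11 and Cd74 to 0.78 at D14, the class II list median to 0.42 and 0.19, and that of dendritic cell-like monocyte genes to 0.25 at D11. Without cells with neutrophil UMIs the medians of neutrophil markers and trafficking receptors turned to 0.17 and 0.07 at D11 and to 1.70 and 0.21 at D14. These alternatives remove the cells that hold the transcripts. Without cells with neutrophil UMIs Lcn2 stood at 7.05 at D14 against 3 naive UMIs. Over 15 cell and scaling alternatives, named genes kept their sign in 410 of 418 values at D14 and 412 of 420 at D11, and the interferon-stimulated median ranged from -1.66 to -1.40 at D14. TMM, library scaling without ribosomal, mitochondrial and hemoglobin genes and per-cell means moved the median of all genes by less than 0.1. Of 15 shares, 8 moved when cells were thinned to 2000 UMIs, and the depth per cell limits all shares. A fold below the counting interval was not detectable at this depth.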
